A study of Mus musculus with 19 samples.

Results

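Part of the mouse genome assembly consists of short contigs that carry no position on a chromosome. Unlocalized contigs are known to belong to a chromosome and are named for it, whereas unplaced contigs, whose names start with chrUn, belong to none that is known. Peaks on these contigs were taken from all 19 annotated peak tables as those whose chromosome field names a random or chrUn contig, and contigs named for the X or Y chromosome were left out. The rule used the name alone and no measured value. It gave 2472 of the 80795 peaks deposited, against 63839 on the autosomes. They lay on 32 contigs, 17 unplaced and 15 unlocalized.

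SPEN binds RNA, brings corepressors to chromatin, and is known from X inactivation and Notch signalling. Contigs that could not be placed are often made of repeats, among them the major satellite, the tandem repeat of the pericentromeric heterochromatin of mouse chromosomes, which the annotation names GSAT_MM. Repeats of this kind are represented in an assembly by only a small part of their copies.

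Chromatin came from cells of adult male FVB/N mice aged 10 to 16 weeks and was precipitated with rabbit polyclonal antibodies against SPEN. In spermatocyte-enriched cells (up to 80% spermatocytes, per the labels), the antibody against the internal part of SPEN was used on cells brought to 43 °C for 30 min, the same with 2 h or 4 h of recovery, and untreated cells kept at 32 °C. In mixed testicular cells, the internal antibody was used on 8 heat-shocked states and the untreated state. The heat-shocked states were 38 °C for 15 min or 30 min, 38 °C for 30 min with 2 h or 4 h of recovery, and the same 4 schedules at 43 °C. An antibody against the N-terminal part was used in testicular cells at 38 °C for 15 min, at 38 °C for 30 min with 2 h of recovery, and untreated. The 3 background libraries were an IgG precipitation from testicular cells of all treatments, an input of testicular cells and an input of spermatocytes. Each precipitated library pooled 5 to 6 precipitations. Each condition had 1 library, so the spread between replicates is not known, and every comparison is between libraries and not between conditions. Sequencing depth is unknown. The lists held 1641 to 29315 peaks, and 2 SPEN lists were long, with 9707 peaks in spermatocytes after 43 °C and 4 h of recovery and 29315 peaks in untreated testicular cells of the internal antibody. The other 17 lists are called the shorter lists below.

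The contigs fell into 3 classes, which were chosen after the data were seen. On 6 unplaced contigs over 50% of the peaks were annotated to GSAT_MM, and these are called the satellite contigs. They were GL456383 with 384 peaks, GL456390 with 297, GL456389 with 247, GL456393 with 221, GL456396 with 195 and GL456392 with 187. Together they held 1531 contig peaks (61.9%). The 5 unlocalized contigs of chromosome 1 (GL456210, GL456211, GL456212, GL456213 and GL456221) held 262 peaks (10.6%), and the remaining 21 contigs held 679 (27.5%). A peak was found in all 19 libraries on 11 contigs, among them all 6 satellite contigs and none of the chromosome 1 contigs. There were 7 contigs with a peak in 1 library alone, and for 6 of them that library was the untreated testicular one with the internal antibody.

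The number of contig peaks was 81 to 139 in the shorter lists and was higher in the 2 long ones. The internal antibody gave 127 contig peaks in untreated spermatocytes, 114 after 43 °C for 30 min, 133 after a further 2 h and 195 after a further 4 h. In testicular cells it gave 288 peaks untreated, and at 38 °C it gave 131 after 15 min, 139 after 30 min, 116 after a further 2 h and 107 after a further 4 h. At 43 °C it gave 121 after 15 min, 118 after 30 min, 129 after a further 2 h and 125 after a further 4 h. The N-terminal antibody gave 82 peaks untreated, 81 after 38 °C for 15 min and 97 after 38 °C for 30 min with 2 h of recovery. The spermatocyte input held 116, the testicular input 135 and the IgG library 118. The N-terminal libraries were the lowest 3 of the 19, with 19 to 206 fewer contig peaks than the internal antibody in the same state. In the 2 pairs without a long list the difference was -50 to -19. These 3 libraries also stand in another folder of the file headers, so antibody and folder cannot be told apart. The background libraries lay within the range of the internal antibody.

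**Figure D1:**
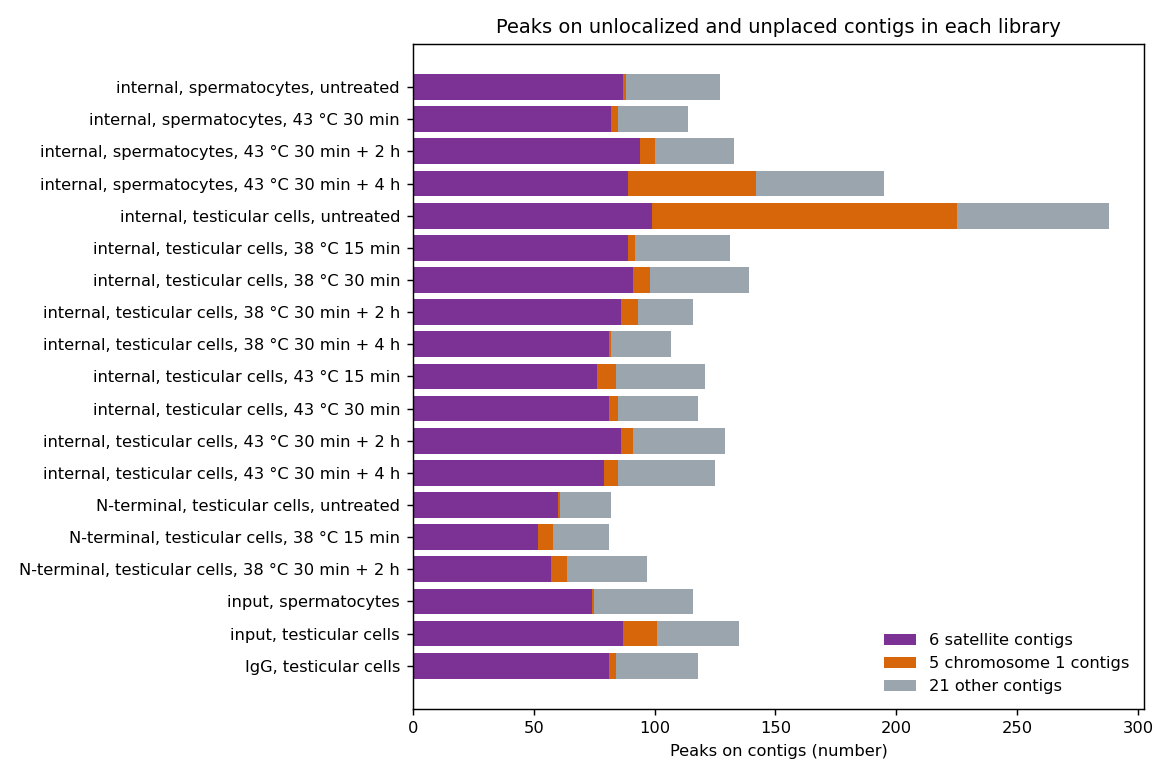
Number of peaks on contigs (horizontal axis) in each of the 19 libraries (rows), stacked by contig class; each bar is 1 library. The satellite part runs from 52 to 99 in every library, whereas the chromosome 1 part is 53 and 126 in the 2 long lists and at most 14 elsewhere.

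As a share of the autosomal and contig peaks together, contig peaks made up 5.23% to 8.40% of the 14 shorter SPEN lists and 6.41% to 7.54% of the background lists. In the long lists they made up 2.10% in spermatocytes at 4 h (exact 95% interval 1.82% to 2.41%, counting error only) and 1.05% in untreated testicular cells (0.931% to 1.18%). The share averaged 6.08% ± 1.94 in SPEN libraries and 7.05% ± 0.579 in background libraries (SD, n = 16 and 3), a difference of -0.96 percentage points that did not pass an exact two-sided permutation test over libraries (Benjamini-Hochberg adjusted p = 0.561 over 14 tests). It averaged 6.53% ± 2.53 in spermatocyte libraries and 6.13% ± 1.60 in testicular libraries (SD, n = 5 and 14; difference 0.39 points; same exact permutation test, adjusted p = 0.79). Set side by side in the same state, it was 6.92% in spermatocytes and 6.68% in testicular cells after 43 °C for 30 min, 8.40% and 7.31% after a further 2 h, 2.10% and 6.60% after a further 4 h, 7.67% and 1.05% untreated, and 7.54% and 6.41% in the inputs. Spermatocytes had the higher share in 4 of 5 pairs, and the pair with the lower share and the untreated pair each contain a long list (mean difference 0.92 points, exact two-sided sign-flip permutation over pairs, p = 0.562, smallest possible 0.0625; pairing chosen after the data were seen). The N-terminal libraries stand in another folder of the file headers than the rest. Within the folder of the background libraries the differences were -0.91 points for SPEN against background and 0.32 points for spermatocytes against testicular cells. The spermatocyte difference depended on the lists and on the denominator. It was 1.11 points without the 2 long lists (exact permutation, adjusted p = 0.0128), 2.04 points as a share of all peaks of a list, sex chromosomes included (adjusted p = 0.0189 by the same exact test), and -0.075 points without the spermatocyte library at 43 °C with 2 h of recovery. The number of contig peaks averaged 131.4 ± 49.2 in SPEN and 123 ± 10.4 in background libraries (SD, n = 16 and 3; difference 8.44; exact permutation, adjusted p = 0.79), and the difference was -2 without the untreated testicular library of the internal antibody.

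Taken over all contigs, contig peaks were wider and had higher scores than autosomal peaks of the same list in all 19 libraries. The score was given by the authors' peak caller, and it is used to describe and rank peaks within a list. Within a library the median score was 95.01 to 134.9 on contigs and 61.4 to 85.4 on autosomes, a difference in log2 median of 0.55 ± 0.13 (SD, n = 19; higher in 19 of 19; exact two-sided sign-flip permutation test over libraries, adjusted p = 6.68e-06). The median width was 273 to 363 bp on contigs and 184 to 276 bp on autosomes, a difference in log2 median of 0.68 ± 0.15 (SD; 19 of 19 libraries; the same adjusted p and exact permutation test). The classes differed in score. The median score was above the autosomal median in 19 of 19 libraries on satellite contigs, in 10 on the 21 other contigs and in 3 on chromosome 1 contigs. Without the 6 satellite contigs the difference in log2 median score was -0.091 (exact sign-flip permutation, adjusted p = 0.098), and that in log2 median width was 0.42 (adjusted p = 1.78e-05, exact permutation); this alternative was chosen after the data were seen. In these tests of 19 libraries the smallest p that the permutations can give was reached, before adjustment 3.81e-06. Libraries that share cells, antibody or IgG are not independent, and the test treats them as if they were.

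**Figure D2:**
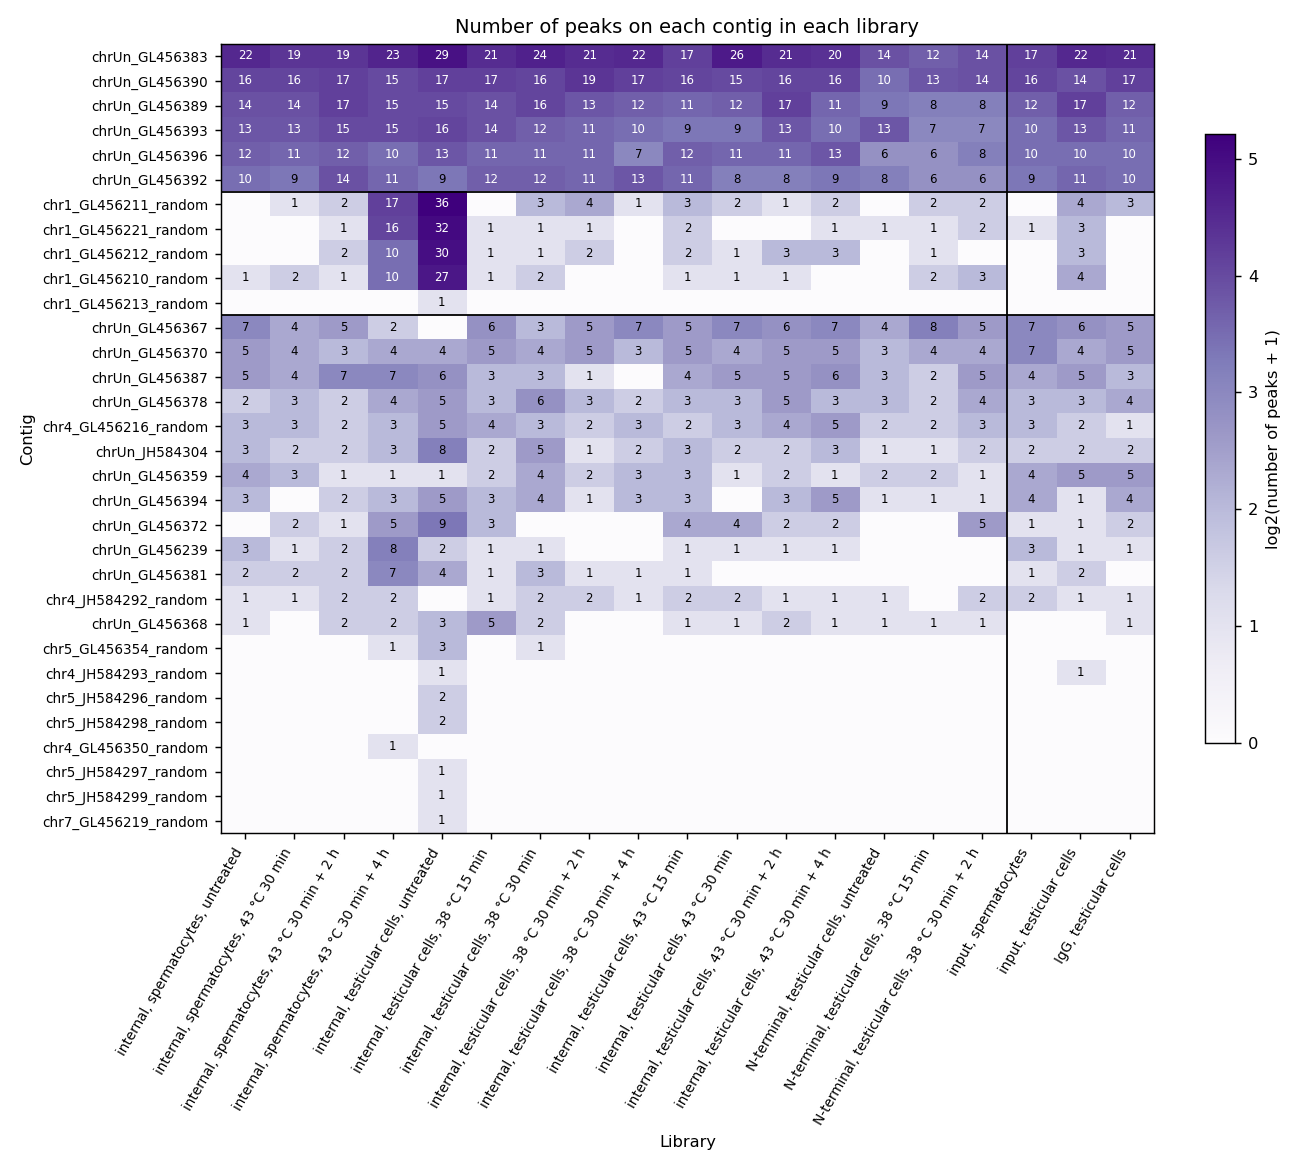
Number of peaks on each of the 32 contigs (rows; satellite contigs, chromosome 1 contigs and other contigs from top to bottom) in each library (columns; SPEN libraries, then input and IgG right of the vertical line); colour is log2(number + 1). The satellite contigs hold 6 to 29 peaks in every library, and 4 of the chromosome 1 contigs hold 10 to 36 in the 2 long lists and at most 4 in the others.

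The repeat content set contig peaks apart. Satellite repeats were the annotation of 1470 contig peaks (59.5%) and of 1.70% of autosomal peaks. Per library the satellite share of contig peaks exceeded that of autosomal peaks by 59.4 ± 9.03 points (SD, n = 19; 19 of 19; exact sign-flip permutation, adjusted p = 6.68e-06). All 1470 carried the name GSAT_MM, and they were 75.7% of the 1942 GSAT_MM peaks of the series. On 3 satellite contigs, GL456383, GL456389 and GL456390, every peak was a GSAT_MM peak. Contigs held 68.8% to 77.6% of the GSAT_MM peaks of a SPEN library and 74.7% to 76.5% of those of a background library, and these ranges overlapped. None of the other satellites of the list made for this work, and none of its ribosomal and small RNA repeats, was found on a contig. These were the satellites SYNREP_MM (252 autosomal peaks), MMSAT4 (42) and ISAT (0), the ribosomal repeats LSU-rRNA_Hsa (1152) and SSU-rRNA_Hsa (94), 5S (9) and 4.5SRNA (11).

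LINE and LTR elements took a smaller share of contig peaks than of autosomal peaks, and for SINE elements this held with the satellite contigs counted but did not pass the test without them. LINE elements, retrotransposons that encode their own reverse transcriptase, were the annotation of 3.76% of contig peaks and 22.6% of autosomal peaks. LTR elements, remnants of retroviruses and their relatives, made up 1.58% and 14.6%, SINE elements 2.79% and 5.43%, and simple repeats 3.52% and 9.76%. Low-complexity sequence was counted among the simple repeats in these shares and in the tests of them. Per library the difference, contig minus autosomal, was -14.9 ± 2.63 points for LINE elements (SD), -9.89 ± 2.35 for LTR elements and -5.15 ± 2.11 for SINE elements. Each share was lower on contigs in 19 of 19 libraries (exact sign-flip permutation, adjusted p = 6.68e-06). The simple repeat difference was -12.5 ± 4.54 points, lower on contigs in 18 of 19 (adjusted p = 1.19e-05, exact permutation), and the untreated testicular library of the internal antibody was the exception, with 3.82% on contigs and 3.59% on autosomes. Since satellite peaks fill most of the contig lists, the shares were also taken without the 6 satellite contigs. The differences were then -9.08 points for LINE elements (exact sign-flip permutation, adjusted p = 5.34e-05), -7.88 for LTR elements (adjusted p = 1.78e-05, exact permutation), -9.24 for simple repeats (adjusted p = 4.01e-05, exact permutation) and 0.69 for SINE elements (adjusted p = 0.595, exact permutation). The young LINE-1 families L1Md_T and L1Md_A had 5 and 10 peaks on contigs, against 4979 and 3082 on the autosomes. The internal part of the IAP retrovirus, IAPEz-int, had 4 and 1724.

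One simple repeat was found almost only on contigs. Peaks annotated to (CAGTA)n or (TACTG)n, which are the same 5-base unit read on opposite strands, numbered 58 on contigs and 5 on autosomes. The contig peaks lay on GL456239, GL456381, GL456387 and GL456393 and were present in 15 SPEN and all 3 background libraries, with scores of 50.6 to 259.6 (median 84.1). Another simple repeat, (CACAG)n, had 14 contig peaks on GL456381, GL456387 and GL456394, in 9 SPEN libraries and no background library. Spermatocytes at 4 h held 3 of the 14, and untreated testicular cells of the internal antibody held 2. IgG, the testicular input and the spermatocyte input held only 118, 135 and 116 of the 2472 contig peaks. On autosomes the (CACAG)n unit, read on either strand, had 795 peaks. L1VL4, a LINE-1 element, had 30 contig peaks in 14 SPEN and 2 background libraries, and B1_Mus1, a SINE, had 51 in all 19 libraries. The other repeats with at least 5 contig peaks were the LINE-1 elements Lx2 (11), L1Md_F (10), L1Md_F2 (7) and Lx2B2 (7) and the elements MTD (9) and RMER1A (7). L1Md_A, L1Md_F, L1Md_F2 and L1Md_T had contig peaks in SPEN libraries alone, 2 to 5 libraries each. Of their 10, 10, 7 and 5 contig peaks, untreated testicular cells of the internal antibody held 5, 5, 3 and 3. Spermatocytes at 4 h held 3, 2, 4 and 1. In these 2 long lists 6.63% and 15.9% of all peaks shared a base with IgG or an input.

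Most contig peaks of SPEN lists lay where IgG or an input had a peak as well. A peak was counted as at background when it shared at least 1 bp with a peak of IgG or of either input. In the 14 shorter SPEN lists this held for 1452 of 1620 contig peaks (89.6%), and 70.6% of all peaks of these lists were at background. In all 16 SPEN lists it held for 1695 of 2103 contig peaks (80.6%), with 38% of all peaks as the background figure. The share at background was higher on contigs than on autosomes in 16 of 16 SPEN libraries, by 18.2 ± 10.3 points (SD; exact sign-flip permutation, adjusted p = 4.27e-05; the p before adjustment, 3.05e-05, is the smallest possible). It was 14.8 points higher without the 2 long lists, and without the 6 satellite contigs the difference was -1.0 points (adjusted p = 0.79, exact permutation). Peaks of the background libraries covered 2.83% of the contigs up to the end of the last peak and 0.0408% of the autosomes, and contig peaks were wider. The part of both in the difference was not tested, and the 16 values share the same 3 background lists.

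**Figure D3:**
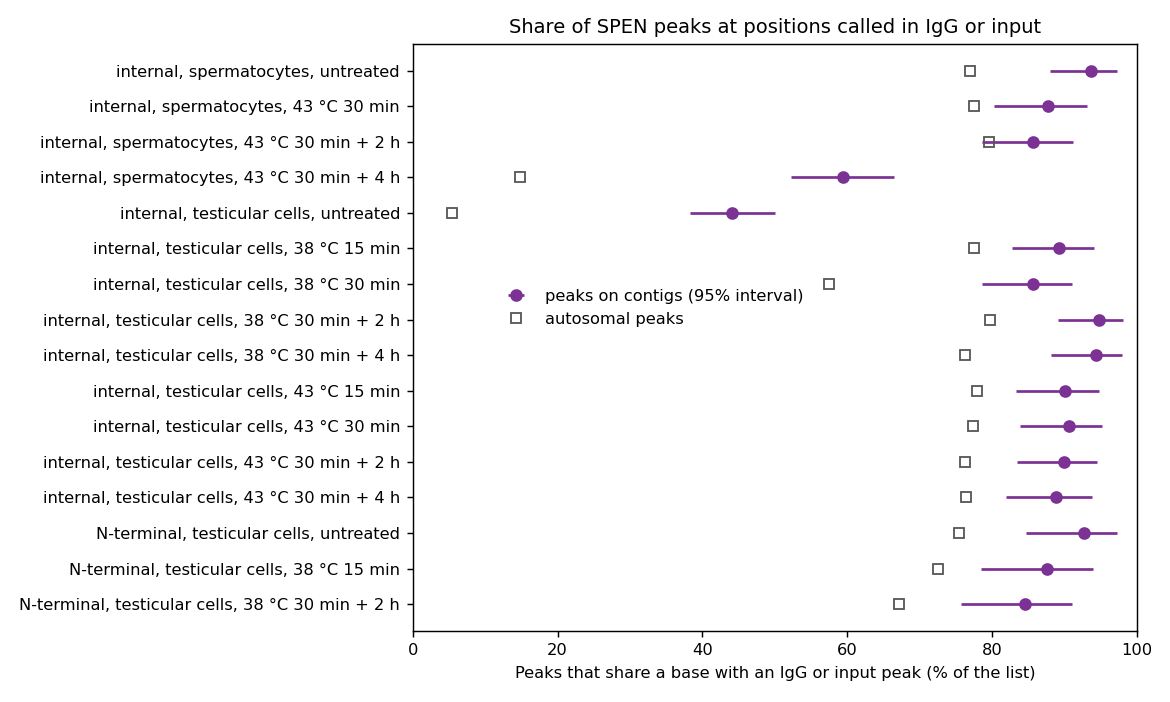
Share of peaks of each SPEN library (rows) that have at least 1 bp in common with an IgG or input peak, in percent of the list, for contig peaks (filled circles, bars are exact 95% intervals for counting error) and autosomal peaks (open squares). The contig value is the higher in all 16 libraries, and the 2 long lists stand apart at 59.5% and 44.1% on contigs.

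The classes of contigs differed in this share. On satellite contigs 1081 of 1101 peaks of the 14 shorter SPEN lists were at background (98.2%), and the share was 95.5% to 100% in each of the 16 SPEN libraries. On the 21 other contigs it was 353 of 454 (77.8%), and on the chromosome 1 contigs 18 of 65 (27.7%). Background peaks covered 27.1% of the satellite contigs, 1.32% of the other contigs and 0.875% of the chromosome 1 contigs. In spermatocytes at 4 h, 116 of 195 contig peaks were at background (59.5%), against 15.9% of all peaks of that list, and 85 of 89 on satellite contigs but 5 of 53 on chromosome 1 contigs were. In untreated testicular cells of the internal antibody it was 127 of 288 (44.1%), against 6.63% of all peaks, with 95 of 99 on satellite contigs and 11 of 126 on chromosome 1 contigs.

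Contig peaks of all libraries were merged into 379 loci wherever they had a base in common. Of these loci 37 (9.76%) held a peak in all 19 libraries, 32 on satellite contigs and 5 on other contigs. Among autosomal peaks merged in the same way 1.02% of loci did. A peak in all 3 background libraries was present at 69 loci (18.2%, against 2.03% of autosomal loci). Of the 69, 50 were on satellite contigs, 19 on other contigs and none on chromosome 1 contigs. At the 37 loci common to all libraries the median of the top score was 300.6 to 503.1 in the SPEN libraries, 475.1 in the spermatocyte input, 499.4 in the testicular input and 437.5 in IgG, so the background values lay inside the SPEN range. Scores of different lists may differ with depth and are set side by side only as a description.

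The locus with the highest score on the contigs was a GSAT_MM stretch at chrUn_GL456389:10323-11057 (mm10). Its peak scored 2663 in untreated spermatocytes, 2917 after 43 °C for 30 min, 2687 after 2 h and 2948 after 4 h of recovery. In testicular cells with the internal antibody it scored 2724 untreated and 2471 to 2895 in the 8 heat-shocked libraries, and with the N-terminal antibody 3126 untreated, 3100 at 38 °C for 15 min and 3132 at 2 h. In the background libraries it scored 2820 in the spermatocyte input, 2801 in the testicular input and 2641 in IgG. The N-terminal values were the 3 highest, and those of the internal antibody and of the background overlapped.

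The order of the antibodies differed between loci. The start of chrUn_GL456370 (bases 1 to 286, not annotated to a repeat) scored 1942 to 2611 in SPEN libraries and 2196 to 2495 in background libraries. The N-terminal values were the 3 lowest there, with 2108 untreated, 1942 at 38 °C for 15 min and 1945 at 2 h of recovery. A GSAT_MM stretch at chr4_GL456216_random:48989-49602, 33392 bp from the TSS (transcription start site) of Dhrsx, scored 902 to 1938 in SPEN and 1586 to 1773 in background libraries. At chrUn_GL456370:18602-19338, an intergenic stretch, the long lists had the highest scores, 1334 in spermatocytes at 4 h and 1400 in untreated testicular cells of the internal antibody, while the other SPEN libraries had 358 to 896. The background libraries had 489 in the spermatocyte input, 722 in the testicular input and 630 in IgG. Of the 10 named loci of this kind, taken from those in all 19 libraries, 7 were GSAT_MM stretches on satellite contigs. In 48 cases on 4 contigs a peak started within 10 bp of the start of its contig, and GL456370 and GL456393 had such a peak in all 19 libraries.

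The chromosome 1 contigs behaved differently from the satellite contigs. In the 2 long lists together they held 179 of their 262 peaks (68.3%), whereas 12.3% of the satellite contig peaks came from these lists. GL456211 had 17 peaks in spermatocytes at 4 h, 36 in untreated testicular cells of the internal antibody and at most 4 in any shorter list. GL456221 had 16, 32 and at most 3, GL456212 had 10, 30 and at most 3, and GL456210 had 10, 27 and at most 4, in the same order. GL456213 had 1 peak, in the untreated testicular list. The shorter SPEN lists held 1 to 8 peaks on these contigs, the testicular input 14, IgG 3 and the spermatocyte input 1.

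The long lists held many more peaks than the shorter ones on chromosome 1 contigs and on autosomes, and few more on satellite contigs. In spermatocytes at 4 h the number of peaks was 10.6 times the median of the 17 shorter lists on chromosome 1 contigs, 5.79 times on autosomes, 1.56 times on the other contigs and 1.10 times on satellite contigs. In untreated testicular cells of the internal antibody the values were 25.2 times, 17.3 times, 1.85 times and 1.22 times. These ratios have no replicate check, and the median on the chromosome 1 contigs was 5 peaks. Per 100 kb up to the end of the last peak, the chromosome 1 contigs had 6.87 peaks in spermatocytes at 4 h, 16.3 in untreated testicular cells and 0.130 to 1.81 in the shorter lists. The autosomes had 0.370, 1.11 and 0.0518 to 0.102 in the same libraries. Divided by the autosomal density of the same list, the density on chromosome 1 contigs was 18.6 in spermatocytes at 4 h and 14.8 in untreated testicular cells, against 2.09 to 22.6 in the shorter lists (median 8.85). The highest of these, 22.6, was that of the testicular input. Satellite contigs had 475 to 877 times the autosomal density in the shorter lists, 132 times in spermatocytes at 4 h and 49.2 times in untreated testicular cells.

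The median score on chromosome 1 contigs was 68.3 in spermatocytes at 4 h, where it was 61.4 on autosomes, and 75.1 in untreated testicular cells, where it was 63.5 on autosomes. It lay below the autosomal median in 16 of the 17 shorter lists, most of which had few such peaks. Of the chromosome 1 contig peaks 11 in spermatocytes at 4 h and 38 in untreated testicular cells scored at least 100, and no shorter list had more than 1. Among the 1000 highest peaks of a list 3 and 7 lay on these contigs, and at most 1 in a shorter list. No repeat was annotated at 207 of the 262 (79.0%), LINE elements at 28, LTR elements at 18, SINE elements at 7 and satellite at none. Of the 53 chromosome 1 contig peaks in spermatocytes at 4 h, 40 (75.5%) shared a base with one of untreated testicular cells, and 41 of the 126 in untreated testicular cells (32.5%, exact 95% interval 24.5% to 41.5%) shared one in the other direction. On satellite contigs the shares of these lists were 85.4% and 87.9%, and on autosomes they were 42.7% and 14.4%.

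Among the chromosome 1 contigs, only peaks on GL456211 and GL456221 were assigned a gene. The descriptions of these genes name Sp110 or Sp100-rs, sequences that mouse chromosome 1 carries in many copies. LOC100041034, a Sp110 pseudogene on GL456211, was assigned all 83 peaks of that contig, in 15 libraries. LOC664787, another Sp110 pseudogene, was assigned 23 peaks on GL456221 in 4 libraries, 7 of them in spermatocytes at 4 h and 14 in untreated testicular cells. Csprs, described as a component of Sp100-rs and on the same contig, was assigned 40 peaks in 13 libraries, of which 20 lay inside the gene as annotated. How reads were divided between copies is not given in the sources used here, so the copy from which these peaks came is uncertain.

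Within 5 kb of a TSS there were 14 contig peaks, at 5 genes, and none was from IgG or an input. IgG, the testicular input and the spermatocyte input held only 118, 135 and 116 of the 2472 contig peaks. Of the 14, 6 were in untreated testicular cells of the internal antibody and 2 in spermatocytes at 4 h. LOC100041034 had 5 of the 14, all in the long lists. Upstream of its TSS, at -1774 bp, a peak scored 85.7 in spermatocytes at 4 h, and at -1674 bp one scored 238.4 in untreated testicular cells (chr1_GL456211_random:167171-168028). LOC664787 had a peak at 3321 bp scoring 57.6 in the N-terminal library at 2 h of recovery and one at -4704 bp scoring 130.8 in untreated testicular cells. Dhrsx, a gene of the dehydrogenase/reductase family, had 2 in untreated testicular cells, 83 bp and 1034 bp downstream of the TSS, with scores of 51.7 and 55.2. Vmn2r122, a vomeronasal receptor gene, had 1, at -522 bp with a score of 54.4, in testicular cells at 38 °C for 30 min with 2 h of recovery (internal antibody).

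Pisd-ps3, a pseudogene of the phosphatidylserine decarboxylase gene Pisd, had the remaining 4 at its promoter (chrUn_JH584304:58040-62068). They scored 97.8 in untreated spermatocytes, and in testicular cells (internal antibody) 83.3 at 38 °C for 30 min, 52.8 with 4 h of recovery from it and 68.9 at 43 °C with 4 h of recovery. Neither long list had a peak there. The authors' annotation assigned no gene to 2183 contig peaks (88.3%), so the share near a TSS was not set against that of the autosomes, and 289 peaks on 13 contigs had 1 of 14 genes. Of those genes 13 were matched to the RefSeq gene table of GRCm38.p6, in which Gm7978 is Pramel50 and Gm3139 is Pramel42.

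Not every contig had its highest count in a long list. GL456367 held 99 peaks, with 2 in spermatocytes at 4 h, none in untreated testicular cells of the internal antibody, 3 to 8 in the shorter SPEN lists and 5 to 7 in the background lists. GL456359 held 47 peaks, with 1 in each long list, 1 to 4 in the shorter SPEN lists and 4 to 5 in the background lists. The 25 peaks of JH584292, an unlocalized contig of chromosome 4 that carries Vmn2r122, came from 17 libraries. Untreated testicular cells of the internal antibody and the N-terminal library at 38 °C for 15 min had none. GL456372 held 41 peaks in 13 libraries, with 5 in spermatocytes at 4 h and 9 in untreated testicular cells, and at most 5 in any shorter list. GL456387 with 78 peaks, GL456378 with 63, GL456394 with 47, GL456239 with 27, GL456381 with 27 and GL456368 with 24 each held peaks in 12 to 19 libraries. Every peak of SPEN lists on GL456370 (83 peaks in all 19 libraries) was at background.

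JH584304 held the widest contig peaks. Of the 39 contig peaks over 2000 bp, 32 were on it, and its 48 peaks had a median width of 3040 bp. Its first locus, bases 2 to 4389, was called in all 19 libraries with top scores reaching 812.5 in the testicular input. Further in, 2 loci named after their values were seen were found in the same 3 SPEN libraries and in no background library. At chrUn_JH584304:15483-16639 the score was 444.3 in spermatocytes at 4 h, 141.3 in testicular cells at 38 °C for 30 min and 700.2 in untreated testicular cells, all with the internal antibody. At chrUn_JH584304:30458-35590 it was 254.4, 79.0 and 599.6 in the same order. The 3 libraries are those with the longest SPEN lists.

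At 84 loci a peak was present in at least 2 SPEN libraries and in no background library, and at 27 of them in at least 3. The 84 were 22.2% of the 379 contig loci, and autosomal peaks merged in the same way gave 10.3% of 35674 loci. For at least 3 SPEN libraries the shares were 7.12% and 2.76%. Without the 2 long lists the shares for at least 2 were 13.7% of 234 contig loci and 15.7% of 6333 autosomal loci. Those for at least 3 were then 5.98% and 7.71%. Of the 84, 45 lay on chromosome 1 contigs, 33 on other contigs and 6 on satellite contigs. The number leans on the long lists. It was 49 without spermatocytes at 4 h, 46 without untreated testicular cells of the internal antibody and 32 without both. Another 164 contig loci (43.3%) were present in 1 SPEN library alone, against 82.2% of autosomal loci. Of the 164, 23 were in spermatocytes at 4 h (6.07% of contig loci, 13.8% on autosomes). Untreated testicular cells of the internal antibody had 96 (25.3%, 63.2% on autosomes). Background libraries alone had 6 loci (1.58%, 1.31% on autosomes).

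The locus of this kind in the most libraries was chr1_GL456211_random:175673-176466, in 10 SPEN libraries, at -10258 bp from the TSS of LOC100041034 by its highest peak. It scored 58.6 in spermatocytes after 43 °C for 30 min, 64.8 at 2 h and 103.5 at 4 h of recovery, and had no peak in untreated spermatocytes. In testicular cells with the internal antibody it scored 207.7 untreated and 50.7 to 65.8 in 4 of the 8 heat-shocked libraries. With the N-terminal antibody it scored 69.3 at 38 °C for 15 min and 52.9 at 2 h of recovery, with no peak in untreated cells. Outside the long lists all these scores lay below 70, near the lowest score of about 50 that the lists hold, so a missing peak is not evidence that no signal was there.

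**Figure D4:**
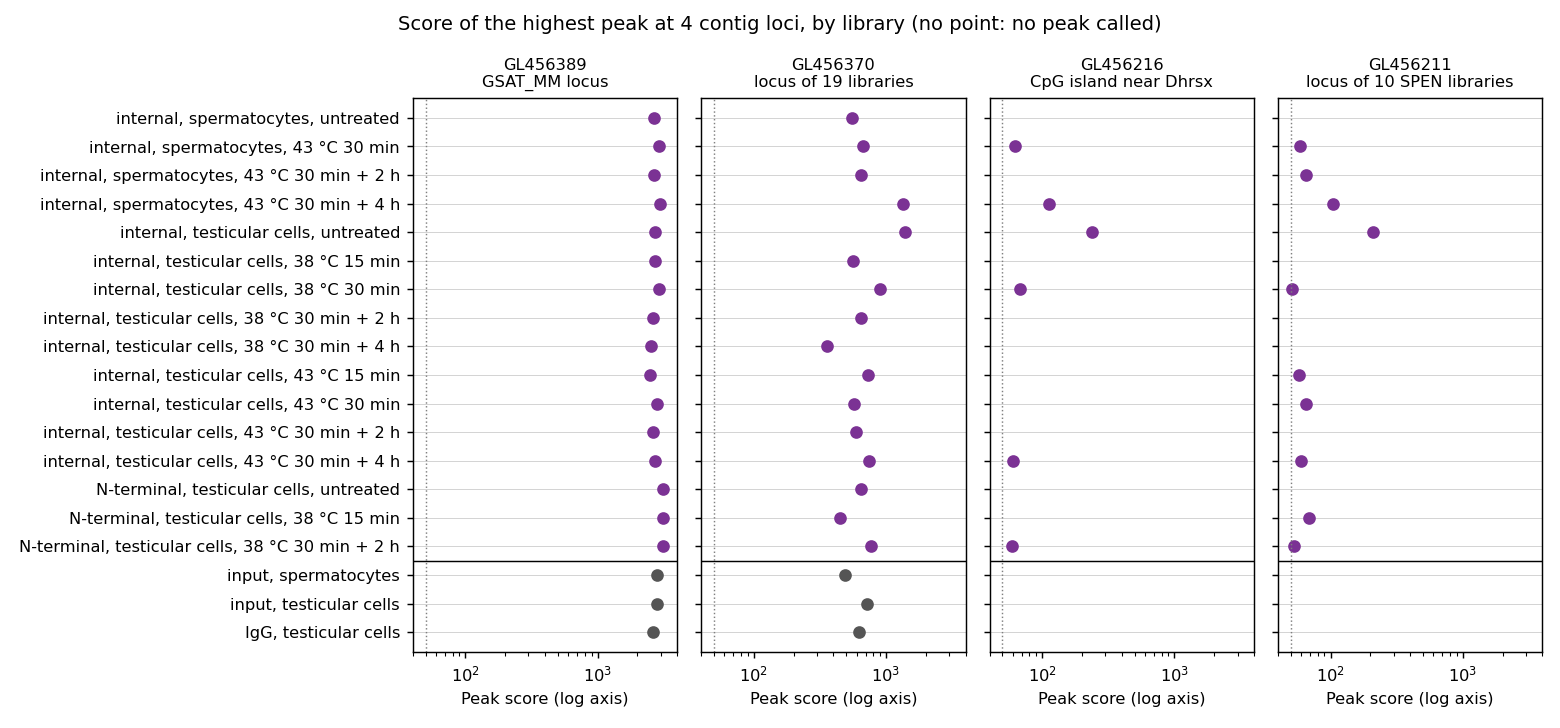
Score of the highest peak (horizontal axis, log scale) in each library (rows) at 4 loci, with purple points for SPEN and grey points for input and IgG libraries; the dotted line is the lowest score of the lists, and a row with no point has no peak. Both loci on the left hold a peak in all 19 libraries, and both loci on the right hold peaks in 6 and 10 SPEN libraries and none in the background libraries.

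A CpG island at chr4_GL456216_random:34075-34984, 18648 bp downstream of the Dhrsx TSS, held a peak in 6 SPEN libraries. It scored 62.5 in spermatocytes after 43 °C for 30 min and 113.3 after a further 4 h, and in testicular cells 238.2 untreated, 68.5 at 38 °C for 30 min and 60.3 at 43 °C with 4 h of recovery with the internal antibody. The N-terminal library at 2 h of recovery had 59.6. Of the 8 contig peaks annotated to a CpG island, 7 lay on this contig. Other named loci of this kind were in 4 to 8 SPEN libraries. A GSAT_MM stretch at chrUn_GL456389:8123-8327 was in 8 with scores of 53.6 to 99.4, an L1VL4 element at chrUn_GL456378:7219-7841 in 5 with 53.3 to 297.9, and a B1_Mus1 element at chrUn_GL456367:1007-1408 in 5 with 50.1 to 134.9. A (CACAG)n stretch at chrUn_GL456381:9955-10222 was in 5 with 54.0 to 122.5, and one at chrUn_GL456381:3083-3459 in 4 with 51.3 to 143.6. The 5 highest loci of 1 SPEN library alone were all in untreated testicular cells of the internal antibody. They scored 141.5 to 203.9 and included an L1Md_F element at chr1_GL456212_random:112257-112715 and an intron of Csprs at chr1_GL456221_random:143757-144364. The 5 highest loci of background alone scored 51.3 to 75.3.

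Sharing between libraries was high on contigs. Of the 2472 contig peaks 2302 (93.1%) shared a base with a peak of at least 1 other library, against 60% of all peaks of the series. Per library the share was 9.94 ± 12.9 points higher on contigs than on autosomes (SD; 19 of 19; exact sign-flip permutation, adjusted p = 6.68e-06), 6.99 points higher without the 2 long lists, and 4.49 points higher (adjusted p = 0.164, exact permutation) without the 6 satellite contigs. With peaks scoring at least 100 the difference was 3.25 points (adjusted p = 0.0578 by the same exact permutation test), which does not pass the threshold of 0.05. The lowest contig share was 66.7% in untreated testicular cells of the internal antibody, and the other 18 libraries had at least 88.2%.

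Between cell populations under the same treatment, 91 of 114 contig peaks of spermatocytes after 43 °C for 30 min (79.8%) shared a base with testicular cells, and 93 of 118 the other way (78.8%). After 2 h of recovery the shares were 77.4% and 76.7%, and after 4 h 51.3% and 76.0%. For untreated cells they were 73.2% of spermatocyte and 37.2% of testicular contig peaks, and for the inputs, with no antibody, 79.3% and 72.6%. On autosomes 60.1%, 62.8% and 10.5% of spermatocyte peaks were shared after 43 °C for 30 min, at 2 h and at 4 h. On chromosome 1 contigs 1 of 3, none of 6 and 3 of 53 were, in the same order. The spermatocyte share of the inputs lay between those of the SPEN lists at 43 °C for 30 min and at 2 h, and the testicular share lay below both.

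Between the antibodies in testicular cells, 81.5% of N-terminal and 54.2% of internal contig peaks at 38 °C for 15 min shared a base. The shares were 69.1% and 59.5% at 38 °C with 2 h of recovery, and 78.0% and 25.7% in untreated cells. On satellite contigs 96.2%, 93.0% and 85.0% of the N-terminal peaks were shared in that order. On autosomes 60.9%, 50.3% and 69.4% were, and on chromosome 1 contigs none of 6, 1 of 7 and none of 1. The testicular input and IgG shared 70.4% and 81.4% of their contig peaks.

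With the internal antibody in testicular cells, where the untreated list is the longest of the series, all 8 heat-shocked lists held fewer contig peaks than the untreated list, by 149 to 181 in all. Fewer by 118 to 125 were on chromosome 1 contigs, 22 to 40 on other contigs and 8 to 23 on satellite contigs. Of the contig peaks of the heat-shocked lists 67.8% to 76.3% (median 71.5%) shared a base with the untreated list. In spermatocytes the 3 heat-shocked lists had 2 to 52 more chromosome 1 contig peaks than the untreated list, and from 13 fewer to 68 more contig peaks in all. The 2 heat-shocked lists of the N-terminal antibody had 5 and 6 more chromosome 1 contig peaks than the untreated list. With 1 library per condition none of these differences can be set against a spread between replicates, and list length and treatment cannot be told apart.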

How the data were processed

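The authors deposited a peak list and an annotated copy for each of 19 libraries. Positions and scores were the same in both for all 19. Per the submitters' processing notes, Bowtie2, SAMtools and HOMER were used on mm10, with versions not given in the sources used here. Peak names carry MACS, and the peak score is the authors' value, per the file headers. The lowest score was 50.0 to 50.02 in every list. Headers name a folder for 16 libraries, background included, and another for the 3 N-terminal ones.

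Peaks were selected by contig name, counted, and intersected at a minimum of 1 bp, with exact Clopper-Pearson 95% intervals for shares. These cover counting error only. Differences were tested by exact two-sided permutation over libraries, or by sign flips of contig minus autosomal values, with Benjamini-Hochberg adjustment over 14 tests, of which that on distance to a TSS is not reported because most contig peaks have no gene assigned (Python 3.11.15, pandas 2.3.3, numpy 2.4.6, scipy 1.17.1). These tests were checked on simulated data. Repeats, genes and distances are the authors' deposited annotation. Lengths of contigs were taken as the largest peak end. The members and lists were chosen with earlier results of these data known, and the 3 contig classes after the data were seen. Named loci in all 3 background libraries were the first 10 by number of libraries and then by highest score. All 10 were thereby loci of all 19 libraries. Named too were the 10 in the most SPEN libraries and no background library. The rest were the 5 highest of 1 SPEN library and the 5 highest of background alone. Alternatives were score and rank limits, lists left out, the header folder, overlap rules and denominators, and, added after the data were seen, pairs of the same state and the satellite contigs left out. There are 10 peaks on contigs named for the Y chromosome, and they were left out.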

Additional observations from a re-analysis of the deposited data

Results flagged for a closer look

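The difference in peak number between heat-shocked and untreated lists went in opposite directions in different sets of libraries on chromosome 1 contigs, and between the antibodies on the other contigs. On chromosome 1 contigs, all 8 heat-shocked testicular lists of the internal antibody held fewer peaks than their untreated list, by at least 118 (the difference nearest to 0 was -118). Both heat-shocked lists of the N-terminal antibody held more, by at least 5, and all 3 heat-shocked spermatocyte lists held more, by at least 2. On the 21 other contigs, the nearest difference to 0 was -22 with the internal antibody and 2 with the N-terminal antibody in testicular cells, while in spermatocytes 2 lists lay below and 1 above the untreated list, by -10 to 14. On satellite contigs both antibodies gave fewer peaks in testicular cells, with differences of -8 to -3 for the N-terminal and -23 to -8 for the internal antibody. These opposite directions were not tested, since each condition has 1 library. Each set rests on 1 untreated list, and that of the internal antibody in testicular cells is the longest of the series, with 29315 peaks against 2164 in the untreated N-terminal list and 1783 in untreated spermatocytes.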

How the results depend on the processing

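The satellite contigs carried several differences within libraries. Without them, an alternative added after seeing the data, contig minus autosomal values were -1.0 points at background, 4.49 points shared, -0.091 in log2 median score, -0.40 points for satellite repeats and 0.69 points for SINE elements. The loss of the satellite repeat difference follows from the definition of the class, since these contigs were chosen by their share of GSAT_MM peaks. Without these contigs, width, LINE, LTR and simple repeats kept direction and side of the threshold. Under the other alternatives run, score, width, repeat class and share at background kept both, as did the share at other libraries except with scores of at least 100 (3.25 points, adjusted p = 0.0578, exact permutation). The median share of contig peaks was 9.53% with scores of at least 100, 9.16% for the 1000 highest peaks, 4.36% of all peaks and 0.54% for unlocalized contigs alone, and the median number was 70, 70 and, for unlocalized contigs, 10. Loci numbered 162, 126 and, without the long lists, 234, and those of at least 2 SPEN and no background library 25, 16 and 32. The spermatocyte minus testicular number was 18.6 for the 1000 highest peaks (adjusted p = 0.00241, exact permutation), -1.82 within the header folder and -1.61 for unlocalized contigs. As a share of autosomal and contig peaks, the difference for the 1000 highest peaks was only 0.34 points (adjusted p = 0.641, exact permutation). That share difference was 1.11 points without the long lists and -0.062 for unlocalized contigs. It was 2.04 points as a share of all peaks, sex chromosomes included. The SPEN minus background number was -8.83 for the 1000 highest peaks, -7.29 without the long lists and -2.40 for unplaced contigs, and that share 0.0040 for unlocalized contigs. Leaving out 1 library at a time gave -2 to 14.4 for the SPEN minus background number, -5.14 to 21.7 (number) and -0.075 to 1.501 points (share) for spermatocytes minus testicular cells, and 46 to 96 loci of at least 2 SPEN and no background library. The added limits left 38 and 7 peaks on chromosome 1 contigs in untreated testicular cells. The cause was not tested where no construction of the alternative shows it. Replicate numbers pair nothing, since each condition has 1 library. Libraries of the same state taken as pairs, a block added after seeing the data, gave -22 peaks (2 of 5 pairs higher) and 0.92 points for spermatocytes minus testicular cells (exact permutation, p = 0.688 and 0.562). Depth limits all counts, and it is unknown.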

Other observations

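Contigs named for the Y chromosome, which the selection leaves out, held 10 peaks. The 7 from SPEN libraries were 1 each in 7 libraries, and scored 56.9 to 107.4. The 3 from background libraries were 1 in the spermatocyte input, scoring 84.9, and 2 in the testicular input, scoring up to 76.5. No SPEN library had more than 1.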
